A study of Mus musculus with 6 samples.

Results

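Meg3, Rian, Mirg, Dlk1, Rtl1 and Dio3 are 6 genes of the Dlk1-Dio3 imprinted domain on mouse chromosome 12, and they were followed here among the 53715 mouse genes of the count table. They were chosen by gene symbol after the level of Meg3 on the 2 diets was known, so that the diet values of these 6 genes are given as a description, without p-values. Libraries of polyadenylated RNA came from the cerebellum of male C57BL/6 mice given either the low-Mn diet, labelled 0 ppm Mn, or the normal-Mn diet, labelled 35 ppm Mn, for 2 weeks, with 3 libraries per diet and 1 cerebellum per mouse. The mice were wild type, adult by the labels and 4 weeks old at purchase by the methods, and both diets were purified and differed in Mn. The study's methods call the 3 mice of a diet biological replicates while a figure legend calls them technical, and if they were technical, the p-values below measure only the spread between libraries. The purpose of the comparison was to find transcripts whose level depends on dietary Mn.

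In mammals only 1 parental copy of each imprinted gene is active. In this domain the protein-coding genes Dlk1, Rtl1 and Dio3 are expressed from the paternal chromosome, and the noncoding RNAs Meg3, Rian and Mirg from the maternal chromosome, under the control of a differentially methylated region between Dlk1 and Meg3. The maternal transcripts carry clusters of microRNAs and C/D box snoRNAs. Meg3 is known as an abundant nuclear RNA of neurons that can bind the Polycomb repressive complex 2, and Dlk1 as a membrane ligand related to those of Notch.

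The genes lie in the order Dlk1, Meg3, Rtl1, Rian, Mirg and Dio3 on GRCm38 as annotated by GENCODE M21. Dlk1 occupies chr12:109452823-109463336, Meg3 chr12:109541001-109571726, Rian chr12:109603940-109661716, Mirg chr12:109729764-109749460 and Dio3 chr12:110279068-110281097, all on the plus strand. Rtl1 occupies chr12:109589193-109600330 on the minus strand. Meg3 has 11 annotated transcripts and Rian 20, against 1 for Rtl1.

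The start of Meg3 is printed because it is the transcription start of the member with the highest level. The window runs from 250 bases before to 50 bases after the first annotated start, on the plus strand at chr12:109540746-109541045 (RefSeq, GRCm38.p6). Capitals mark a CCAAT box (CCAAT), a cAMP response element (TGACGTCA) and a TATA box (TATAAA), the last overlapping a match on the other strand.
Meg3 start window: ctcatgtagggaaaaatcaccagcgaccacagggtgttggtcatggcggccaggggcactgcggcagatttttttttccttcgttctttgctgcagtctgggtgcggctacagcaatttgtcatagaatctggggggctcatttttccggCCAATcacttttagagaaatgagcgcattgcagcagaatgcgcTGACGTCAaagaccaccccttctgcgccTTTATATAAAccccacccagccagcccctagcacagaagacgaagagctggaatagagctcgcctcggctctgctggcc
Searched on both strands, the cAMP response element was in 1.79% of 32851 such windows, the CCAAT box in 37.4% and the TATA box in 13.6%. In the printed Meg3 window they began 57, 100 and 25 bases before the start. A second Meg3 start window, at chr12:109545148-109545447, held none of these motifs. These matches are letters in the sequence, and no binding was measured.

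The study designed a primer pair for Meg3, which is shown because it reads a single annotated transcript of the gene.
Meg3 forward primer: cagagcgcttctgaagacca
Meg3 reverse primer: cacctactgggtgctcactg
Both primers matched 1 of the 11 annotated Meg3 transcripts, Meg3-209, where they bounded a product of 158 bp. The expected counts sum over all transcripts of the gene.

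Within the domain, 58 microRNA hairpins of RefSeq were found, with 114 mature sequences, and all 58 had an entry in the count table. By position, 33 hairpins lay outside Meg3, Rtl1, Rian and Mirg. On the strand of the gene, 14 lay within Mirg, 3 within Rian, 1 within Meg3 and 1 within Rtl1. Another 6 lay within Rtl1 on the opposite strand, where they are transcribed against the Rtl1 messenger RNA. Mature sequences of the best known clusters are printed 5′ to 3′ with the seed, bases 2 to 8, in capitals, to show what the domain carries.
miR-770-5p, in an exon of Meg3: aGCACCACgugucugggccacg
miR-127-3p, opposite Rtl1: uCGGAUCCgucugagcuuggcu
miR-433-3p, opposite Rtl1: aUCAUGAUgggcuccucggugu
miR-136-5p, opposite Rtl1: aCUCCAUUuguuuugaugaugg
miR-370-3p, in an intron of Rian: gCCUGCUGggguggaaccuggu
miR-379-5p, between Rian and Mirg: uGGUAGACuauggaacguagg
miR-1193-5p, between Rian and Mirg: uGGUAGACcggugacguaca
miR-379-3p, between Rian and Mirg: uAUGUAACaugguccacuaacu
miR-411-3p, between Rian and Mirg: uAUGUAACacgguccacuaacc
miR-134-5p, in an exon of Mirg: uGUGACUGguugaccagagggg
miR-382-5p, in an intron of Mirg: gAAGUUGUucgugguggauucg
miR-410-3p, in an exon of Mirg: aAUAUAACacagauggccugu
Of 104 different seeds, 9 were held by more than 1 mature sequence, and the printed pairs miR-379-5p with miR-1193-5p and miR-379-3p with miR-411-3p each share one. In the count table, 69 microRNA entries and 23 snoRNA entries of the domain were at 0 in every library, which allows at most 3 counts, or 0.141 to 0.206 CPM in a library. CPM are counts scaled to a common library total, and from here on they also use TMM factors. The libraries were primed with oligo-dT, and no statement about small RNAs can be drawn from these zeros.

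Library totals ran from 14548336 to 17124327 counts for low-Mn mice and from 18446701 to 21277469 counts for normal-Mn mice. In the deposited table the columns of the normal-Mn libraries carry the dose, while the remaining 3 columns carry a number only and were taken as low-Mn by elimination. For low-Mn libraries, replicate numbers in the text and figures are these column numbers, and which mouse each one was is not known. In the comparison by edgeR's quasi-likelihood test, 16123 genes passed the filter on low counts and 96 were called at an adjusted p under 0.05. The tissue label matched the data, since the summed level of 12 granule neuron markers was 6588 to 6846 CPM in low-Mn libraries and 6472 to 6929 CPM in normal-Mn libraries. That of 18 brain stem neuron markers was 57.0 to 68.2 CPM in low-Mn libraries and 58.3 to 65.3 CPM in normal-Mn libraries. Fewer cells of a type and less RNA per cell cannot be told apart in such bulk libraries.

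Of the 6 genes, 5 passed the filter on low counts and Dio3 did not. One of the 5, Meg3, was called, and higher on the low-Mn diet, where 0.595% of all genes tested were called, 0.416% as higher and 0.18% as lower. Meg3 was also the only one of the 6 whose diets did not overlap, while 17.1% of all genes tested did not overlap. Since the contrast that chose the genes is the one counted here, nothing is read from these counts.

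Meg3, the long noncoding RNA at the start of the maternal transcripts, was at 2267, 2295 and 2324 CPM in the low-Mn libraries, against 1740, 1786 and 1846 CPM in the normal-Mn libraries. Every low-Mn library lay above every normal-Mn library. Meg3 averaged 2295 ± 28.8 CPM in low-Mn mice and 1791 ± 53.0 CPM in normal-Mn mice (SD, n = 3 each). This is a log2 fold change of 0.36 (SE 0.041), or 1.28-fold. In counts as deposited, Meg3 had 38999, 33393 and 37686 in low-Mn libraries and 37189, 37506 and 34064 in normal-Mn libraries. These unscaled counts overlapped, and the low-Mn libraries had the smaller totals. As a share of all counts, which uses no scaling factor, Meg3 took 0.228%, 0.230% and 0.231% in low-Mn libraries, against 0.175%, 0.176% and 0.185% in normal-Mn libraries. It ranked as gene 16, 16 and 15 by count in the low-Mn libraries and as gene 27, 26 and 24 in the normal-Mn libraries.

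Part of the Meg3 sequence is shared with other annotated entries. Exons of Gm26906 on the opposite strand cover 6.79% of its exonic bases, and 10.4% of its 50-base words occur in other genes, so its level is uncertain to that extent. Gm26906 had 0 counts in every library. By the labels the library kit is directional, while the study's methods name a NEBNext Ultra II RNA kit without calling it directional. No source used here gives the strand setting of the counting.

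**Figure D1:**
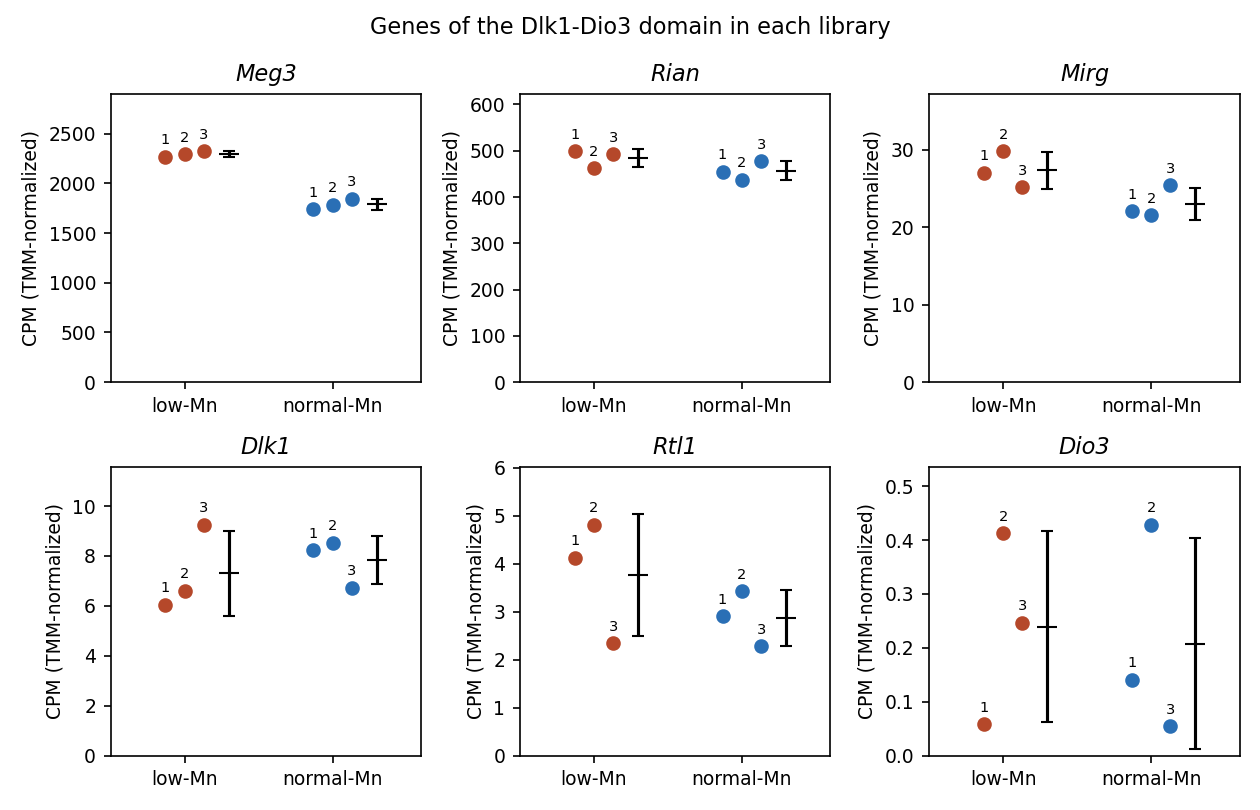
TMM-normalized CPM of the 6 genes (vertical axes, each from 0) in the 3 low-Mn and 3 normal-Mn libraries, numbered by replicate, with black marks for the mean and SD. Meg3 lies at 2267 to 2324 CPM in low-Mn libraries and at 1740 to 1846 CPM in normal-Mn libraries, while the diets overlap for the other genes.

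Rian, the host of the C/D box snoRNAs, had 499, 463 and 492 CPM in low-Mn libraries and 454, 437 and 478 CPM in normal-Mn libraries. The diets overlapped, with low-Mn replicate 2 below normal-Mn replicate 3. The log2 fold change was 0.09 (SE 0.046), with means of 485 ± 19.3 CPM in low-Mn mice and 456 ± 20.4 CPM in normal-Mn mice (SD, n = 3 each). Once a length and GC trend was taken out, the value was 0.04.

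Mirg, with 14 of the 58 hairpins within it, had 27.0, 29.8 and 25.2 CPM in low-Mn libraries, against 22.0, 21.6 and 25.4 CPM in normal-Mn libraries. Low-Mn replicate 3 lay below normal-Mn replicate 3, so that the diets overlapped by this pair. Mean levels were 27.3 ± 2.35 CPM in low-Mn mice and 23.0 ± 2.10 CPM in normal-Mn mice (SD, n = 3 each), and the log2 fold change was 0.25 (SE 0.091). It rested on 408 to 465 counts in low-Mn libraries and 453 to 471 counts in normal-Mn libraries.

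The protein-coding genes of the paternal chromosome were at low levels. Dlk1, the Notch ligand relative, had 6.04, 6.60 and 9.25 CPM in low-Mn libraries and 8.24, 8.52 and 6.72 CPM in normal-Mn libraries. Low-Mn replicate 3 was the highest of all 6 libraries and low-Mn replicate 1 the lowest. The log2 fold change of Dlk1 was -0.10 (SE 0.17), and without low-Mn replicate 1 it was 0.02. Rtl1, which derives from the Gag and Pol genes of a retrotransposon and is needed in the placenta, had 4.13, 4.81 and 2.34 CPM in low-Mn libraries and 2.90, 3.43 and 2.28 CPM in normal-Mn libraries. Its log2 fold change was 0.38 (SE 0.27), with replicate 3 the lowest on both diets, and leaving out 1 library moved it between 0.17 and 0.63. MicroRNA entries on the opposite strand cover 8.12% of the Rtl1 exonic bases, and the strand setting of the counting is not known. Whether reads of that strand enter the Rtl1 counts was not tested. Dio3, the deiodinase that inactivates thyroid hormone, had 1, 6 and 4 counts in low-Mn libraries and 3, 9 and 1 counts in normal-Mn libraries. A difference in Dio3 was not detectable at this depth.

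The Meg3 and Rtl1 point values are of like size, at 1.28-fold and 1.30-fold, but their spread differs. The SD of log2 CPM within a diet was 0.033 for Meg3, 0.061 for Rian, 0.13 for Mirg, 0.26 for Dlk1 and 0.43 for Rtl1, in the order of falling counts. Normal-Mn replicate 3 was the highest of its diet for Meg3, Rian and Mirg and the lowest for Dlk1 and Rtl1. On the low-Mn diet, replicate 3 was the highest for Meg3 and Dlk1 and the lowest for Mirg and Rtl1.

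Levels were also compared between the genes per kilobase of exon. The mean over the 6 libraries was 113 CPM per kb for Meg3, 25.8 for Rian, 3.45 for Mirg, 1.34 for Dlk1, 0.521 for Rtl1 and 0.110 for Dio3. The ranges over the libraries of neighbours in this order did not overlap, with Mirg at 2.96 to 4.09 and Dlk1 at 1.07 to 1.64 CPM per kb. Per kilobase of the median transcript the order was the same, at 2563 CPM per kb for Meg3, 526 for Rian, 22.9 for Mirg, 5.86 for Dlk1, 0.521 for Rtl1 and 0.128 for Dio3.

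A ratio within a library does not depend on scaling between libraries. For each 100 counts of Meg3 there were 22.0, 20.2 and 21.2 counts of Rian in low-Mn libraries, against 26.1, 24.5 and 25.9 in normal-Mn libraries. The diets did not overlap in this ratio, which averaged 21.1 ± 0.927 in low-Mn libraries and 25.5 ± 0.882 in normal-Mn libraries (SD, n = 3 each). The log2 of the ratio of these means was -0.27, and leaving out 1 library moved it between -0.30 and -0.24. The ratio comes from the contrast that chose Meg3 and has no test. Counts of Mirg per 100 counts of Meg3 were 1.19, 1.30 and 1.08 in low-Mn libraries and 1.27, 1.21 and 1.38 in normal-Mn libraries, which overlapped. For Dlk1 they were 0.267, 0.287 and 0.398 in low-Mn libraries and 0.473, 0.477 and 0.364 in normal-Mn libraries, which also overlapped. Meg3 made up 81.2%, 82.3% and 81.8% of the summed counts of Meg3, Rian and Mirg in low-Mn libraries, against 78.5%, 79.6% and 78.6% in normal-Mn libraries.

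**Figure D2:**
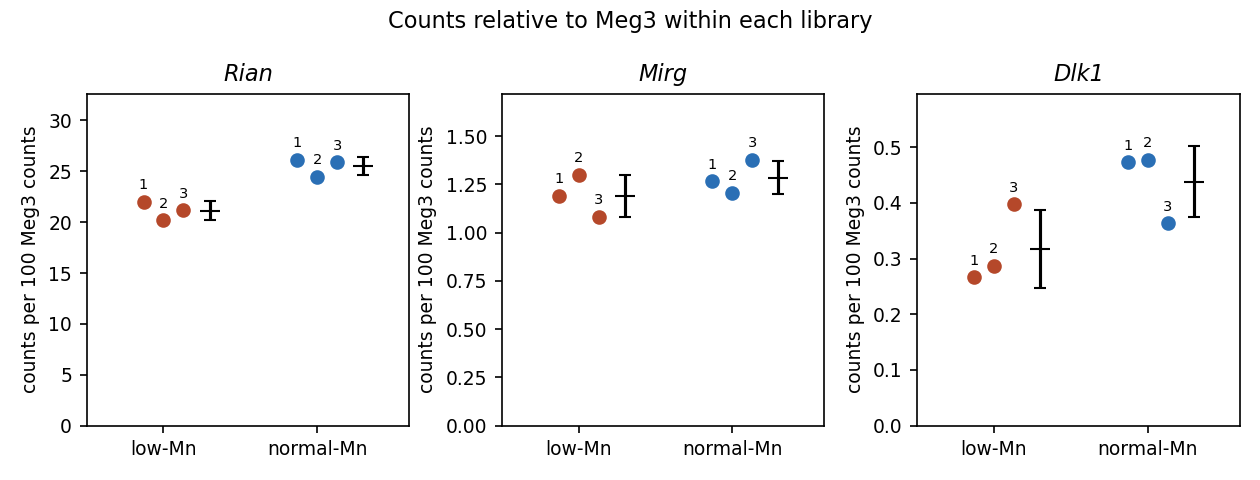
Counts of Rian, Mirg and Dlk1 for each 100 counts of Meg3 (vertical axes, from 0) in the 3 low-Mn and 3 normal-Mn libraries, numbered by replicate, with the mean and SD in black. For Rian the low-Mn libraries lie at 20.2 to 22.0 and the normal-Mn libraries at 24.5 to 26.1, and the diets overlap for Mirg and Dlk1.

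Other genes of the interval from Begain to Dio3 were not used in the choice and were tested in the fit over all genes. Of 122 entries of the table in the interval, the 6 genes included, 16 had any count and 9 were tested. Gm26945, a long noncoding RNA of unknown function with a single exon, lies in an intron of Rian on the same strand, at chr12:109640341-109642351. It had 48, 44 and 42 counts in low-Mn libraries, against 25, 16 and 13 counts in normal-Mn libraries. Every low-Mn library lay above every normal-Mn library, at 2.59 to 3.02 CPM in low-Mn libraries and 0.705 to 1.17 CPM in normal-Mn libraries. Gm26945 rose by a log2 fold change of 1.66 (SE 0.33, adjusted p = 0.0235 by edgeR's quasi-likelihood test). Its adjusted p ran from 0.0271 to 0.11 when 1 library was left out, and the call was lost without low-Mn replicate 1 (0.0797), low-Mn replicate 2 (0.11), normal-Mn replicate 2 (0.0834) or normal-Mn replicate 3 (0.0737). DESeq2 gave Gm26945 no adjusted p, and limma-voom called it (adjusted p = 0.0257). No exonic base of Gm26945 lies in an exon of Rian, and whether reads of unspliced Rian RNA enter its counts was not tested.

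The other 3 genes tested in the interval were not called. Dio3os, a noncoding RNA transcribed away from Dio3, had 11, 14 and 20 counts in low-Mn libraries and 15, 8 and 7 counts in normal-Mn libraries, with a log2 fold change of 0.93 (SE 0.47, adjusted p = 0.434 by edgeR). Begain, which encodes a protein that binds postsynaptic guanylate kinases and marks one end of the interval, had a log2 fold change of -0.12 (adjusted p = 0.646 by edgeR). Gm37899, between Rian and Mirg, had -0.10 (adjusted p = 0.944 by edgeR). Over these 4 genes, Gm26945 included, the median log2 fold change was 0.41, with 2 positive, beside -0.0025 over all genes tested. Dio3os reached the filter's minimum count of 10 in every low-Mn library but, on the normal-Mn diet, in replicate 1 alone. It thus entered the median through the diet where it was higher, and nothing is read from this median.

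Within 1 Mb on either side of the interval, 29 of 61 entries were tested and none was called by edgeR, DESeq2 or limma-voom, with 2 at an unadjusted p under 0.05. Their median log2 fold change was 0.01 and their range -0.29 to 0.55. Slc25a29, which encodes a mitochondrial carrier of basic amino acids, had the low-Mn libraries above the normal-Mn libraries, with a log2 fold change of 0.29 (adjusted p = 0.107 by edgeR), and was called with the replicate block and the length and GC trend removed together (0.0492). Evl, which encodes an actin regulator, had the low-Mn libraries below, at -0.08 (adjusted p = 0.561 by edgeR). Both were singled out after their values were seen.

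**Figure D3:**
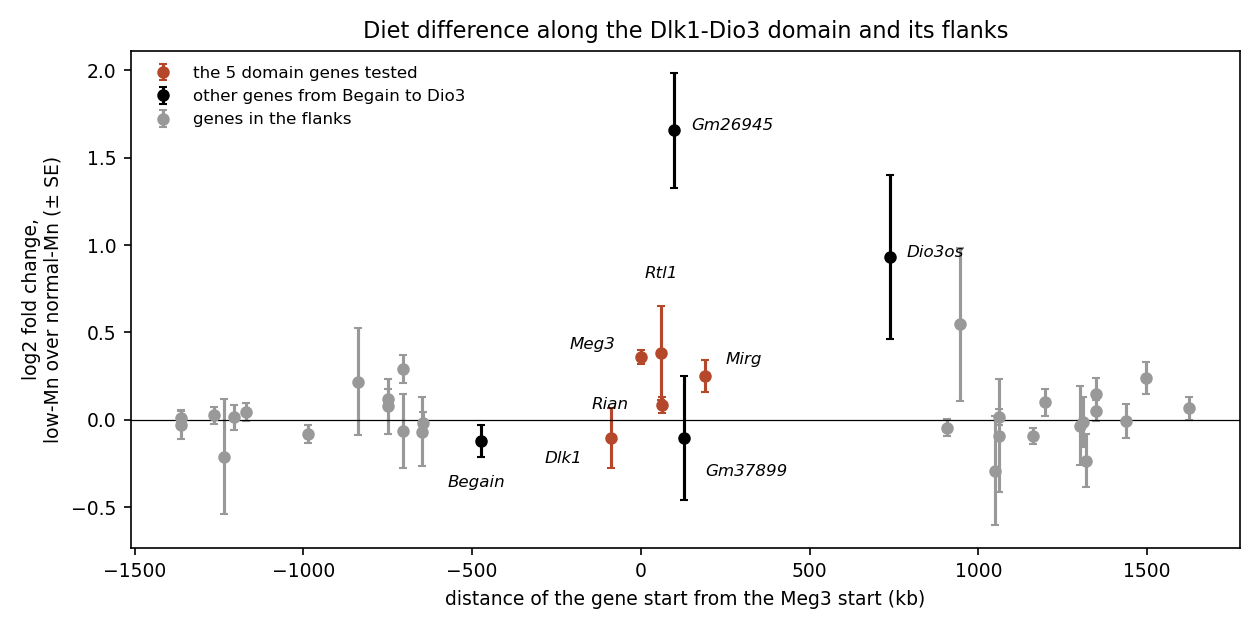
Log2 fold change of low-Mn over normal-Mn libraries with its standard error (vertical axis) against the distance in kb of each tested gene's start from the start of Meg3 (horizontal axis), for the 5 domain genes tested (red), the other 4 genes between Begain and Dio3 (black) and 29 genes in the flanks (grey). Gm26945 at 1.66 is the highest point, Meg3 lies at 0.36 with a narrow bar, and the flanks spread from -0.29 to 0.55.

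Genes that maintain imprints or DNA methylation formed the first of the lists around the domain. None of the 16 tested was called by edgeR, and limma-voom called none, while DESeq2 called Tet3 and Dnmt3a as higher. Over all genes DESeq2 called 1.92% of 7144 with an adjusted p (1.22% higher and 0.7% lower), and limma-voom 0.391% of 16123 (0.285% higher and 0.105% lower). In this list 5 genes were at an unadjusted p under 0.05 by edgeR, where 12.1% of all genes tested were (6.54% higher and 5.58% lower), and this share is the one to set beside each such count below. The median log2 fold change was 0.07, with 13 positive. Tet3, a dioxygenase that starts removal of DNA methylation, had 98.1, 99.0 and 112 CPM in low-Mn libraries, against 91.9, 88.0 and 80.5 CPM in normal-Mn libraries, with a log2 fold change of 0.25 (SE 0.061, adjusted p = 0.0717 by edgeR). Dnmt3a, a methyltransferase for new DNA methylation, had 142, 148 and 148 CPM in low-Mn libraries and 133, 120 and 129 CPM in normal-Mn libraries, with 0.20 (SE 0.049, adjusted p = 0.0730 by edgeR). The diets did not overlap for either gene. Dnmt3l and Dppa3, which act in germ cells and early embryos, were at 0 in every library.

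The Polycomb repressive complex 2 list had 11 genes tested, none of them called by edgeR, DESeq2 or limma-voom, with 1 at an unadjusted p under 0.05 and a median of 0.02. Its smallest p belonged to Aebp2, a DNA-binding accessory subunit, with a log2 fold change of 0.17 (adjusted p = 0.188 by edgeR), followed by Phf1, a chromatin reader, with 0.12 (adjusted p = 0.447 by edgeR). Of 30 Notch pathway genes none was called by edgeR, DESeq2 or limma-voom, 6 were at an unadjusted p under 0.05, against 12.1% of all genes tested, and the median was 0.05. Hes1, a transcriptional repressor induced by Notch, had 4.94, 4.40 and 4.19 CPM in low-Mn libraries, against 6.51, 7.62 and 8.83 CPM in normal-Mn libraries. Its log2 fold change was -0.76 (SE 0.18, adjusted p = 0.0517 by edgeR), and the diets did not overlap. Hes1 was called as lower in 5 of 15 alternatives, which were no filter, a mean of at least 100 counts, the length and GC trend removed with and without the replicate block, and the fit without normal-Mn replicate 1. Maml1, a coactivator of Notch, had 0.34 (adjusted p = 0.0969 by edgeR).

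Genes of thyroid hormone transport, activation and response, the process in which Dio3 acts, had 15 tested and none called by edgeR or limma-voom. DESeq2 called 1 as higher, 2 were at an unadjusted p under 0.05, and the median was 0.06. Klf9, a transcription factor induced by thyroid hormone, had 170, 174 and 173 CPM in low-Mn libraries and 145, 159 and 151 CPM in normal-Mn libraries, with a log2 fold change of 0.19 (SE 0.047, adjusted p = 0.0756 by edgeR). The diets did not overlap for Klf9. Slc16a10, a transporter of aromatic amino acids and thyroid hormones, had 6.22, 3.71 and 5.49 CPM in low-Mn libraries and 3.60, 3.90 and 3.36 CPM in normal-Mn libraries, which overlapped, with 0.51 (SE 0.21, adjusted p = 0.333 by edgeR). Dio2, the deiodinase that activates the hormone, had 0.03 (SE 0.067), with overlapping diets. The 9 relatives of Rtl1 tested, retrotransposon Gag-like genes, had none called by edgeR, DESeq2 or limma-voom, with 1 at an unadjusted p under 0.05 and a median of -0.08. The smallest p values were those of Rtl8a, at -0.15 (adjusted p = 0.306 by edgeR), and Rtl5, at -0.20 (adjusted p = 0.494 by edgeR).

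Imprinted genes elsewhere in the genome were listed by the parental copy that is active. None of 15 maternally expressed genes was called by edgeR, DESeq2 or limma-voom, with 1 at an unadjusted p under 0.05 and a median of -0.06. H19, a noncoding RNA, had 2.62, 1.72 and 2.22 CPM in low-Mn libraries, against 9.13, 2.14 and 2.66 CPM in normal-Mn libraries, of which replicate 1 stood above the rest, and its log2 fold change was -1.09 (adjusted p = 0.262 by edgeR). Kcnk9, a potassium channel, had 0.15 (adjusted p = 0.481 by edgeR). Among 23 paternally expressed genes, edgeR called 1 as lower, DESeq2 called that gene and 1 as higher, and limma-voom called none. Beside this, edgeR called 0.18% of all genes tested as lower, and DESeq2 1.92% of those with an adjusted p in either direction. In this list 4 genes were at an unadjusted p under 0.05 by edgeR, 1 higher and 3 lower, beside 12.1% of all genes tested. The median was -0.04. Igf2, the growth factor, had 159, 156 and 165 CPM in low-Mn libraries, against 191, 212 and 173 CPM in normal-Mn libraries, and fell by 0.26 on the log2 scale (SE 0.059, adjusted p = 0.0432 by edgeR). The Igf2 call was lost in 5 of 6 fits with a library left out, the exception being that without normal-Mn replicate 3 (adjusted p = 0.0133 to 0.2), and with limma-voom (0.059). Peg3, a zinc finger gene, had 482, 470 and 485 CPM in low-Mn libraries and 413, 380 and 448 CPM in normal-Mn libraries, with a log2 fold change of 0.21 (SE 0.051, adjusted p = 0.0618 by edgeR). Peg3 was the higher call of DESeq2, and edgeR also called it with the replicate block, with the length and GC trend removed, with no filter and without normal-Mn replicate 3.

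Other long noncoding RNAs were compared because Meg3 is one of the most abundant. None of 20 was called by edgeR, 8 were at an unadjusted p under 0.05, 4 in each direction, beside 12.1% of all genes tested, and the median was -0.03. DESeq2 called Malat1 and Snhg11 and limma-voom Malat1, all as higher. Malat1, an abundant nuclear RNA, had 1936, 1911 and 2055 CPM in low-Mn libraries, against 1780, 1710 and 1789 CPM in normal-Mn libraries, with a log2 fold change of 0.16 (SE 0.042, adjusted p = 0.0932 by edgeR). Snhg11, a neuronal noncoding RNA, had 1298, 1231 and 1222 CPM in low-Mn libraries and 1155, 1022 and 1158 CPM in normal-Mn libraries, with 0.17 (SE 0.049, adjusted p = 0.125 by edgeR). In both the diets did not overlap. Among 17 genes of microRNA processing and action edgeR called 1, DESeq2 3 (Ago3, Ddx5 and Tnrc6a) and limma-voom none, all as higher. Beside this, edgeR called 0.416% of all genes tested as higher, and DESeq2 1.22% of those with an adjusted p. In this list 3 genes were at an unadjusted p under 0.05 by edgeR, all higher, beside 6.54% of all genes tested as higher. The median was 0.07, with 13 positive. Ago3, an Argonaute protein that binds microRNAs, had 89.7, 92.2 and 96.1 CPM in low-Mn libraries and 78.7, 69.7 and 82.8 CPM in normal-Mn libraries, and rose by 0.27 (SE 0.061, adjusted p = 0.0479 by edgeR). The Ago3 call was lost in 5 of 6 fits with a library left out, the exception being that without normal-Mn replicate 3 (adjusted p = 0.0346 to 0.21), and also with upper quartile scaling and limma-voom. Tnrc6a, a partner of Argonaute in silencing, had 0.19 (SE 0.047, adjusted p = 0.0618 by edgeR). In the earlier lists the sign varied. Positive values numbered 7 of 11 Polycomb, 17 of 30 Notch and 12 of 15 thyroid hormone genes. They numbered 2 of 9 relatives of Rtl1 and 7 of 20 other long noncoding RNAs. Among imprinted genes elsewhere they numbered 5 of 15 maternally and 8 of 23 paternally expressed. The median over all genes tested was -0.0025, and nothing is read from the counts of positive genes.

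**Figure D4:**
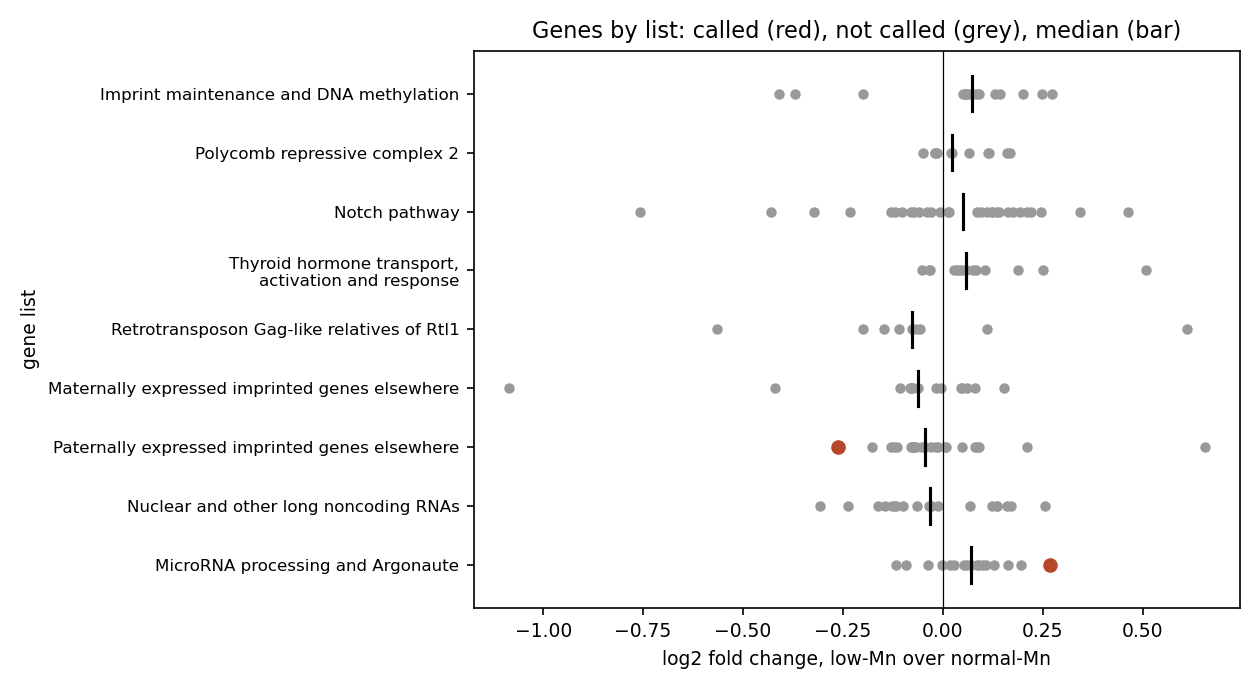
Log2 fold change of low-Mn over normal-Mn libraries (horizontal axis) of every tested gene in 9 lists (rows), with called genes in red, other genes in grey and the median of each list as a black bar. Igf2 at -0.26 and Ago3 at 0.27 are the 2 called genes, and list medians run from -0.08 to 0.07.

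Markers of granule neurons and of other cell types were read on the same diets. Of 12 granule neuron markers none was called by edgeR or limma-voom, and DESeq2 called 1 as higher. By edgeR 1 was higher at an unadjusted p under 0.05, beside 6.54% of all genes tested. Of 13 oligodendrocyte markers 1 was called by edgeR as lower (Gjc3), beside 0.18% of all genes tested, and 9 were lower at an unadjusted p under 0.05, beside 5.58%. Their summed level was 5705 to 5919 CPM in low-Mn libraries, against 5942 to 6632 CPM in normal-Mn libraries. The Gjc3 call was lost in 5 of 6 fits with a library left out, the exception being that without normal-Mn replicate 3 (adjusted p = 0.0493 to 0.167), and with limma-voom (0.0548). Choroid plexus and ependyma markers had 4 of 14 called by edgeR as lower (Kl, Ace, Mfrp and Sostdc1) and 10 lower at an unadjusted p under 0.05. Leaving out 1 library gave 1 to 5 calls, with low-Mn replicate 2 absent leaving Kl and either low-Mn replicate 3 or normal-Mn replicate 2 absent leaving Ace and Kl, and limma-voom called 3. Their summed level was 3602 to 4447 CPM in low-Mn libraries and 4259 to 5138 CPM in normal-Mn libraries. The 14 markers of meninges and fibroblasts had 2 called by edgeR as lower (Igf2 and Fn1) and 6 lower at an unadjusted p under 0.05. With low-Mn replicate 2 absent neither was called (adjusted p = 0.172 for Igf2 and 0.0695 for Fn1 by edgeR), and limma-voom called Fn1 alone. Their summed level was 1497 to 1807 CPM in low-Mn libraries and 1649 to 1846 CPM in normal-Mn libraries. No marker of these 3 lists was at 0 in every library. Of 12 astrocyte markers none was called by edgeR or limma-voom, 3 were at an unadjusted p under 0.05 and DESeq2 called 1 as lower, with summed levels of 6293 to 6489 CPM in low-Mn libraries and 6554 to 6809 CPM in normal-Mn libraries. None of 12 Purkinje neuron markers was called by edgeR, DESeq2 or limma-voom, none was at an unadjusted p under 0.05, and their sum was 11080 to 11500 CPM in low-Mn libraries and 10550 to 11300 CPM in normal-Mn libraries. The part of these cell types in the level of Meg3 was not tested.

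Genes were ranked by the Pearson correlation of their log2 CPM with that of Meg3 over the 6 libraries, among 11684 genes with a mean of at least 100 counts. The points share library and depth, and diet separates them, so the values are a description. The 5 highest were Ptprm (0.993), a receptor phosphatase, Nup160 (0.990), a nuclear pore protein, Btbd3 (0.987), which orients dendrites, the potassium channel Kcnb2 (0.987), and 4833420G17Rik (0.987). The 3 lowest were Ephx2 (-0.993) and Phyh (-0.988), enzymes of lipid metabolism, and Dele1 (-0.991), a mitochondrial stress signal. Rian was most like Tm6sf1 (0.998), Csnk1g3 (0.993) and Snx13 (0.990). For Mirg the highest were Actr5 (0.995), Taf1c (0.989) and Fam126b (0.985), and for Dlk1 they were Zkscan17 (0.992), Wnt7a (0.985) and Stip1 (0.984).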

How the data were processed

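RNA of the cerebellum of 3 low-Mn and 3 normal-Mn mice was measured by RNA-seq. The authors deposited expected counts per gene, not normalized. The submitters' processing notes name FastQC, STAR, RSEM, DESeq2 and mm10, and their versions were not given in the sources used. Of 53807 entries, 92 were spike-ins without any count, which were dropped, and 53620 of 53715 mouse genes matched GENCODE M21. Every value column was used.

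After rounding of the expected counts, low genes were removed by filterByExpr (minimum count 10, minimum total 15), and libraries were scaled by TMM factors (0.989 to 1.01). Diets were compared with glmQLFit and glmQLFTest of edgeR 4.0.16 in R 4.3.3. The Benjamini-Hochberg adjustment covered 16123 genes, and calls were made at 0.05. The standard error was the absolute log2 fold change divided by the square root of F. Log2 CPM used a prior count of 2. The fit was tested on simulated counts with a constant dispersion and changes larger than that of Meg3, so smaller differences were not covered. Libraries of 1 diet were further apart than sampling noise (chi-square per degree of freedom 3.61 to 7.59). Motifs and sequences were read with Python 3.11.15 and plots drawn with matplotlib 3.10.9.

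The 6 genes and the gene lists were chosen with earlier results of these data known. Named genes were the 6 genes, every other tested gene from Begain to Dio3 and called genes in its flanks, called list members or the 2 of smallest p, and the genes most like Meg3, Rian, Mirg and Dlk1. Outside this rule, Slc25a29, Evl, Dio2, Ddx5 and the called cell type markers are named, chosen after their values were seen. Members of lists came from general knowledge. A few list members are not reported here and were left out of their lists. Alternatives were RLE and upper quartile scaling, no filter, a mean of at least 100 counts, DESeq2 1.42.0, limma-voom (limma 3.58.1), a replicate block, a length and GC trend (splines with 4 degrees of freedom, 99.9% of tested genes), and each library left out. The study's brain metal and qPCR values were not analysed here.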

Additional observations from a re-analysis of the deposited data

How the results depend on the processing

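The log2 fold change of Meg3 stayed between 0.34 and 0.38 over 15 alternatives, that of Rian between 0.04 and 0.12 and that of Mirg between 0.18 and 0.32, with no change of sign. Dlk1 ran from -0.31 to 0.02 and Rtl1 from 0.17 to 0.63. Rtl1 has no value with a mean of at least 100 counts, which leaves 14 alternatives. Dio3 was below the filter, and had 0.15 (SE 1.01) without it and 0.18 (SE 1.17) in DESeq2. The count of genes called, 96, became 424 with no filter, 63 with limma-voom, 171 with the length and GC trend removed and 240 with the replicate block and that trend together. It ran from 37 to 93 with 1 library left out, where leaving out low-Mn replicate 1 gave 47, low-Mn replicate 2 gave 37 and normal-Mn replicate 2 gave 45. With upper quartile scaling 58.9% of calls were higher, against 69.8%. The low-Mn column numbers have no known link to the normal-Mn replicate numbers, so the replicate block matched libraries by number only. Deviations of libraries with the same number had correlations of 0.0297, -0.0238 and 0.0361, which cannot settle a pairing. With the replicate block 128 genes were called. No alternative of scaling moved the median of all genes by over 0.1. Each scaling levels the libraries on the bulk of genes, so nothing is read from this. Of 135 counts of calls in lists under alternatives, 45 moved. The cause of these shifts was not tested. At library totals of 14548336 to 21277469 counts the depth did not reach Dio3, and it limits Dlk1, Rtl1 and Gm26945.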
